A study of Mus musculus with 24 samples.

Results

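The genes described here make, break down, carry and sense prostaglandins in the mouse colon. They are 10 genes, namely Ptgs1, Ptgs2, Ptges, Ptges2, Ptgis, Hpgd, Slco2a1, Ptger2, Ptger3 and Ptger4, chosen by their symbols. The array held 15 probes for them, of 56605 probes and 45616 gene names in all. Of the 10 genes, 6 had 1 probe, 3 had 2 probes (Ptgis, Ptger3 and Ptger4) and 1 had 3 probes (Ptges).

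Colon RNA of C57BL/6J mice was measured on 24 single-color Agilent arrays, with 4 mice in each of 6 groups, made up of the classes M, F and F(OVX) on either LFD or HFD (written M + LFD and so on). M were males and F females after a sham operation, and F(OVX) were females without ovaries. LFD and HFD were diets with 10 and 45 kcal% fat, eaten for 14 weeks by mice that were 7 weeks old on arrival. All 6 groups, the LFD groups included, received azoxymethane (AOM, 10 mg/kg), a carcinogen, followed by 3 cycles of 1.5% dextran sulfate sodium (DSS), a colitis-inducing agent, and were killed 75 days after AOM. The series analyzed here holds no mice without AOM and DSS, so the values describe diet, sex and surgery within the tumor model and not the model against a healthy colon. The study asked how sex and ovarian hormones bear on the response of the colon to HFD.

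Prostaglandin synthesis starts when a phospholipase frees arachidonic acid from membranes. The cyclooxygenases Ptgs1 (COX-1, present in most tissues) and Ptgs2 (COX-2, induced by inflammation and growth signals) turn it into prostaglandin H2. Terminal synthases then make the single products, among them Ptges and Ptges2 for prostaglandin E2 (PGE2) and Ptgis for prostacyclin. Slco2a1 brings prostaglandins into cells, Hpgd oxidizes them to inactive products, and PGE2 acts through the receptors Ptger2 and Ptger4, which raise cyclic AMP (cAMP), and Ptger3, which lowers it. In the colon, PGE2 is known for epithelial repair after injury and for the growth of tumors, and loss of Hpgd is known from human colorectal cancer.

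Values are log2 signals, quantile-normalized over the 24 arrays, and a gene with several probes was represented by its brightest probe unless another is named. A gene was tested in a comparison if the scanner software marked that probe as well above background on each of the 4 arrays of a group compared. It was called if it changed 1.5-fold or more with a limma p, before adjustment, under 0.05, the thresholds of the study's methods, with p-values adjusted over all genes tested beside them. All 8 markers of colonic epithelium were well above background on all 24 arrays. Between 40.5% and 61.9% of probes passed that flag per array, and the dimmest signal to pass it ranged from 3.08 to 5.89 on the log2 scale, so detection of a dim gene also depends on the array. Each slide held M, F or F(OVX) with the LFD arrays in row 1 and those of HFD in row 2, so slide cannot be told apart from sex and surgery, nor row from diet. The arrays of M + LFD replicates 1 and 2 stood apart in colon region genes, with posterior Hox scores (the mean of 6 Hox genes, each centered on its mean over the arrays) of -3.60 and -2.44, against -0.86 and 0.00 on the other arrays of that group and up to 3.15 elsewhere.

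Of the 10 genes, 7 were well above background on all 24 arrays (Ptgs1, Ptges, Ptges2, Ptgis, Hpgd, Slco2a1 and Ptger4). The other 3 were Ptgs2 and Ptger3, on 17 arrays each, and Ptger2, on 10. The widest spread within groups among the 7 was that of Slco2a1, with a pooled SD of 0.69, and the narrowest were those of Ptges (0.18) and Ptges2 (0.19). In bulk RNA, fewer cells of a type and less RNA per cell cannot be told apart.

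**Figure D1:**
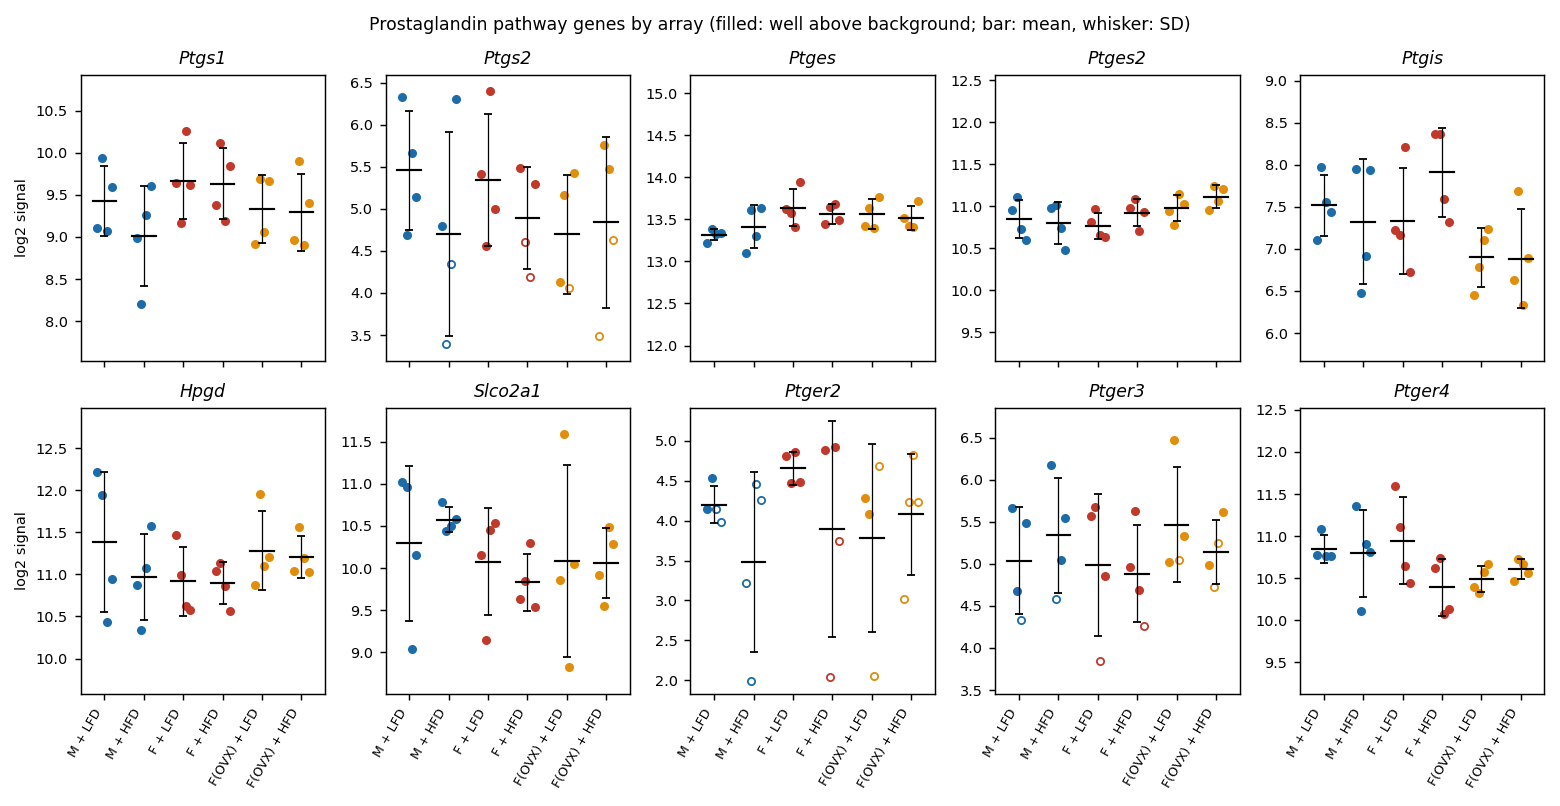
Log2 signal of the brightest probe of each of the 10 genes on all 24 arrays (y axis, with at least 3.4 log2 units in each panel) by group (x axis). Filled points are well above background, open points are not, bars are group means and whiskers are SD (n = 4). LFD and HFD arrays of a class overlapped for every gene, as they did for all but 2.6% (M), 1.9% (F) and 2.3% (F(OVX)) of the genes tested, and open points appear only for Ptgs2, Ptger2 and Ptger3.

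None of the 10 genes was called between HFD and LFD in any class of mice on its brightest probe. In males, 0 of 8 tested genes were called, against a background of 4.3% of the 20516 genes tested. In females, 0 of 9 were called, against 1.2% of 22085 genes, and in OVX females 0 of 7, against 2.19% of 19211 genes. At an adjusted p under 0.05 no gene of the whole array passed in any of the 3 classes, whereas 1251, 643 and 709 genes had an unadjusted p under 0.05 in males, females and OVX females, respectively. The median log2 fold changes of the tested genes were -0.12, -0.07 and -0.02, beside medians of 0.01, 0.00 and 0.01 over all genes tested. A lower mean on HFD was seen for 6 of 8, 7 of 9 and 5 of 7 genes, none of which passed the test. Among these, Ptgs2 in males and females and Ptger2 in females entered through their LFD group alone, since 2 of 4 HFD arrays were not well above background. With the replicate number as a block, which pairs the female arrays, 587 genes were called in females in place of 264, and still none of the 10. With backgrounds this small, 0 calls among 7 to 9 genes is near what the share over all genes gives, and it does not show that the genes were equal between the diets.

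**Figure D2:**
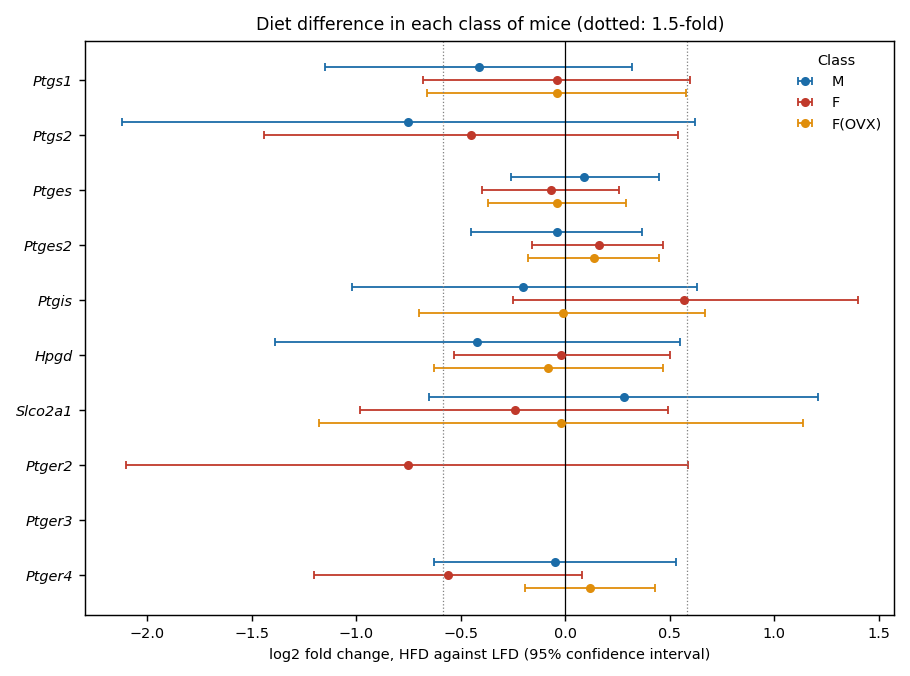
Log2 fold change of HFD against LFD (x axis) with its 95% confidence interval for each tested gene (y axis) in M, F and F(OVX), from the limma fits of 8 arrays each. Every interval includes 0, the widest are those of Ptgs2 in M and Ptger2 in F, and Ptger3 was tested in no class.

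The cyclooxygenases are described first, and the 250 bases before the annotated starts of their genes are shown because their probes differed in detection (Ptgs1 on 24 of 24 arrays, Ptgs2 on 17 of 24). The sequences are from RefSeq (GRCm38.p6), run 5′ to 3′ on the strand of the gene, and have the motifs searched in capitals. The motifs, searched on both strands, were the TATA box (TATAAA), the cAMP response element half-site (CGTCA), the E-box (CACGTG), the GC box (GGGCGG), the CCAAT box (CCAAT), the C/EBP site (TTGCGCAA), the AP-1 site (TGANTCA) and the NF-kappaB consensus. No motif found in the 2 windows overlapped another.
Ptgs1, chr2:36230176-36230425, plus strand: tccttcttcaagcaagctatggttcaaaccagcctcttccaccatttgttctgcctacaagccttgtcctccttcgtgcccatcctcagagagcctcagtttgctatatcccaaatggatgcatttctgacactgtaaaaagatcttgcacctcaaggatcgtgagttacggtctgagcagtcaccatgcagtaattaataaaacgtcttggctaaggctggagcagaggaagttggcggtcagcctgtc
Ptgs2, chr1:150099781-150100030, plus strand: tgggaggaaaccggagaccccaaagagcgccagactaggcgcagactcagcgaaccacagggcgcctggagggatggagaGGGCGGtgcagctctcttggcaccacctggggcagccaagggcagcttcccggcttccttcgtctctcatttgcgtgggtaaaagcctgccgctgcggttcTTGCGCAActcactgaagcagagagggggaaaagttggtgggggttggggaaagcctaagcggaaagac
The Ptgs1 window held none of these letters. The Ptgs2 window held a GC box 170 to 165 bases before the start and the C/EBP letters 69 to 62 bases before it. GGGCGG was in 32.7% and TTGCGCAA in 0.164% of all 32851 promoter windows of that length. Over the 9 genes with an entry in the table, GGGCGG was found in 6 windows, CCAAT in 2 (Ptger2 and Ptger4, 33.8% of all windows), TATAAA in 1 (Slco2a1, 12.4%) and CACGTG in 1 (Ptges2, 6.02%). CGTCA (17.8% of all windows), TGANTCA (6.75%) and the NF-kappaB consensus (7.25%) were found in none of the 9. Only these 250 bases were searched, so sites farther upstream or after the annotated start are not covered. Whether these letters bear on detection or signal was not tested.

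Ptgs1 signal did not differ between the diets beyond its spread in any class. The 4 arrays of M + LFD read 9.11, 9.94, 9.07 and 9.59, and those of M + HFD read 8.99, 8.20, 9.26 and 9.60. F + LFD read 9.64, 9.16, 10.26 and 9.62, and F + HFD read 9.38, 10.12, 9.19 and 9.84. F(OVX) + LFD read 8.92, 9.69, 9.06 and 9.67, and F(OVX) + HFD read 8.96, 9.90, 8.91 and 9.40. All 6 groups overlapped, and the lowest array of all was M + HFD replicate 2. The log2 fold change of HFD against LFD was -0.41 (SE 0.32, exact permutation p = 0.343, n = 4 per group) in males and -0.04 in both females and OVX females. In M + HFD against F + HFD it was -0.62 (95% CI -1.27 to 0.03, limma adjusted p = 0.367), which exceeded the 1.5-fold limit but not the p limit. That comparison passed when M + HFD replicate 4 (-0.82) or F + HFD replicate 3 (-0.77) was left out.

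Ptgs2, the inducible cyclooxygenase, lay near the limit of detection, and its arrays varied more than the group means did. M + LFD read 6.33, 4.69, 5.66 and 5.14, and M + HFD read 4.79, 3.39, 4.34 and 6.30. F + LFD read 5.41, 4.56, 6.40 and 5.0, and F + HFD read 5.48, 4.60, 4.19 and 5.30. F(OVX) + LFD read 4.13, 5.16, 4.06 and 5.43, and F(OVX) + HFD read 3.49, 5.76, 5.47 and 4.63. Values above 6 were seen on M + LFD replicate 1, M + HFD replicate 4 and F + LFD replicate 3, one array in each of 3 groups, and the groups overlapped. All 4 arrays of M + LFD and of F + LFD were well above background, against 2 of 4 in M + HFD, F + HFD and F(OVX) + HFD and 3 of 4 in F(OVX) + LFD. The log2 fold change on HFD was -0.75 in males (SE 0.60, 95% CI -2.12 to 0.62, p = 0.244 and adjusted p = 0.889 by limma, exact permutation p = 0.314, n = 4 per group) and -0.45 in females (95% CI -1.44 to 0.54). OVX females were not tested, and their group means ± SD were 4.70 ± 0.70 on LFD and 4.84 ± 1.02 on HFD. Both differences include arrays not well above background. Without M + HFD replicate 4 the male difference passed the limits, at -1.28 (limma adjusted p = 0.872), with 1 of the 3 remaining M + HFD arrays well above background, so its size is not measured on that side.

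Ptges, the inducible PGE2 synthase, was steady on its brightest probe and varied more on the others. On the brightest probe (A_55_P1974193) M + LFD read 13.22, 13.38, 13.33 and 13.34, and M + HFD read 13.10, 13.61, 13.30 and 13.64. The remaining groups ran from 13.40 to 13.94, and the diets overlapped in every class. The diet differences were 0.09 in males (95% CI -0.26 to 0.45), -0.07 in females (95% CI -0.40 to 0.26) and -0.04 in OVX females (95% CI -0.37 to 0.29). All 4 arrays of M + LFD lay below those of F + LFD, which read 13.62, 13.58, 13.41 and 13.94. The difference of -0.32 (SE 0.14, adjusted p = 0.462 by limma, exact permutation p = 0.0286, n = 4 per group) is 1.25-fold and did not reach the fold limit.

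A dimmer Ptges probe (A_51_P312327), detected on 23 of 24 arrays, was called in males. M + LFD read 5.12, 4.91, 5.84 and 5.64, and M + HFD read 5.83, 6.94, 6.11 and 6.94. The highest M + LFD array lay just above the lowest M + HFD array, so the groups overlapped by 1 array on each side. With every probe tested on its own, the log2 fold change in males was 1.08 (SE 0.32, p = 0.00831 and adjusted p = 0.806 by limma, exact permutation p = 0.0571, n = 4 per group), where 4.23% of 26118 probes were called. F + LFD read 5.63, 5.89, 6.57 and 6.36, and F + HFD read 6.18, 6.24, 6.76 and 6.32, a difference of 0.26. F(OVX) + LFD read 5.99, 6.06, 6.51 and 6.06, and F(OVX) + HFD read 6.04, 4.81, 5.89 and 5.99, a difference of -0.47. The 4.81 was F(OVX) + HFD replicate 2, the 1 array of 24 where this probe was not well above background. The male call was lost without M + LFD replicates 1 and 2 (0.72) and with the posterior Hox score as a covariate (0.96), alternatives chosen after seeing the data.

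The diet effect on that probe in males minus that in OVX females was 1.55 (SE 0.42, limma adjusted p = 0.537, with 6.15% of probes called), and it was called in all 19 alternatives run for it, at 1.19 to 1.76. Against females it was 0.82. The probe was also called for M against F on LFD, at -0.73 (p = 0.0237 and adjusted p = 0.464 by limma, exact permutation p = 0.0857, n = 4 per group, with 4.77% of probes called), a call lost in 6 of 11 alternatives. For F(OVX) against F on HFD, where the groups did not overlap, it was -0.69 (p = 0.0306 and adjusted p = 0.838 by limma, exact permutation p = 0.0286, n = 4 per group, with 2.41% called), a call lost in 3 of 10. Over those alternatives it ran from -0.81 to -0.4. Both the -0.69 and the 1.55 include F(OVX) + HFD replicate 2, so they rest in part on undetected signal. The remaining Ptges probe (A_55_P1974189), detected on 15 of 24 arrays, passed the limits only in the male minus female diet effect, at 1.17 (SE 0.56, limma adjusted p = 0.969, with 3.22% called). It was tested there because all 4 arrays of F + LFD were well above background, against 3 of 4 in M + LFD and in M + HFD and 2 of 4 in F + HFD, so that value rests in part on undetected signal. Its means in males were 5.07 on HFD and 4.41 on LFD, a difference of 0.66 (exact permutation p = 0.114, n = 4 per group) that the filter kept out of the limma test. The brightest probe correlated with these at r = 0.43 and 0.29 over the 24 arrays, and the dimmer probes with each other at 0.62. All 3 probes had a higher mean on HFD in males, by 0.09, 1.08 and 0.66, and what each one detects was not tested. Of 119 probe tests of the 10 genes, 6 were called, of which 5 were on Ptges and 1 on Ptgis. Over all probes, the share called ran from 0.713% (averaged diet effect) to 8.16% (M against F on HFD) across the 11 comparisons. These comparisons share arrays, so the Ptges calls are not separate results.

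**Figure D3:**
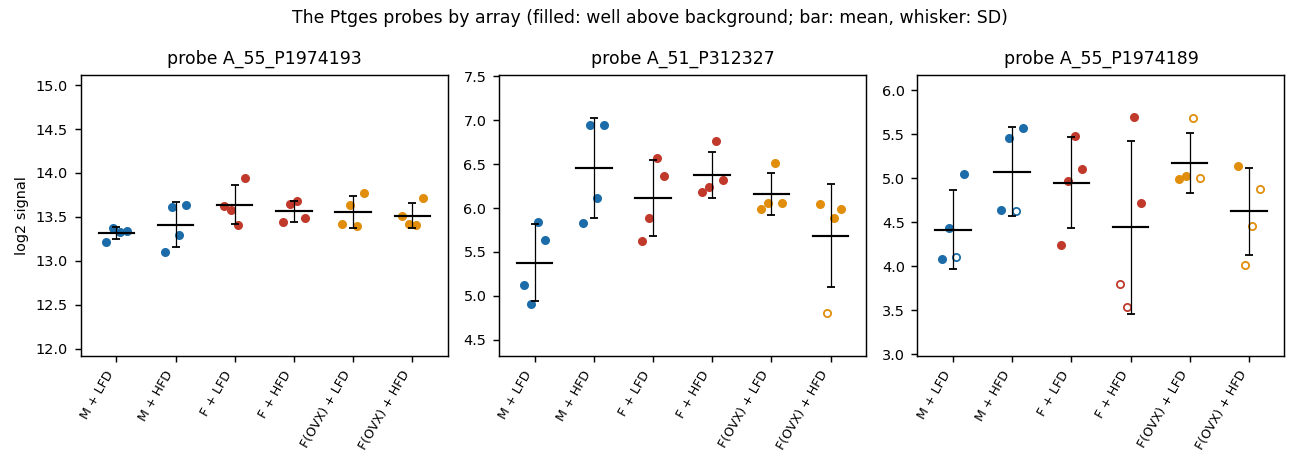
Log2 signal of the 3 Ptges probes (y axes, each 3.2 log2 units) by group (x axis), with filled points well above background, bars at group means and whiskers of SD (n = 4). On the probe in the middle panel M + HFD lies at a mean of 6.46 and M + LFD at 5.38, while on the brightest probe, at left, the same groups lie at 13.41 and 13.32.

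Ptges2, a second PGE2 synthase, had group means between 10.77 ± 0.15 in F + LFD and 11.11 ± 0.13 in F(OVX) + HFD (SD, n = 4), and its signals ran from 10.48 to 11.24 over the 24 arrays. The diet differences were -0.04, 0.16 and 0.14 in males, females and OVX females, with limma 95% confidence intervals of -0.45 to 0.37, -0.16 to 0.47 and -0.18 to 0.45. These intervals lie within a 1.5-fold change in either direction. The same held for the brightest Ptges probe in each class, for Hpgd in females and for Ptger4 in OVX females. For Ptges and Ptger4 this covers the brightest probe only. A dimmer Ptges probe was called in males at 1.08. The dimmer Ptger4 probe differed by 0.46 in OVX females (SE 0.29, not called), so a 1.5-fold change is not bounded there.

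Ptgis, the prostacyclin synthase, was the 1 gene called in any of the 11 comparisons made with the brightest probes, and the call was between OVX and sham-operated females on HFD. F + HFD read 8.36, 8.36, 7.59 and 7.32, and F(OVX) + HFD read 6.63, 7.69, 6.33 and 6.89. The groups overlapped through F(OVX) + HFD replicate 2, which lay above the lower pair of F + HFD arrays. The log2 fold change was -1.02 (SE 0.37, 95% CI -1.79 to -0.25, p = 0.0118 and adjusted p = 0.924 by limma, exact permutation p = 0.0857, n = 4 per group), a 2.03-fold lower signal in F(OVX) + HFD. In that comparison 1 of 7 genes tested was called, against 1.97% of all 19713 genes tested in either direction and 1.19% downward, and no gene of the array passed an adjusted p under 0.05 (959 had an unadjusted p under 0.05). Across 17 alternative settings and left-out arrays the difference stayed between -1.43 and -0.74 and the call was kept each time, with adjusted p from 0.719 to 1 by limma. On the dimmer Ptgis probe, F + HFD read 5.03, 5.03, 4.77 and 4.19, and F(OVX) + HFD read 3.20, 4.25, 2.12 and 2.10. That probe was well above background on 2 of the 4 F + HFD arrays and on none of F(OVX) + HFD, so it was not tested and no fold is given.

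On LFD, Ptgis read 7.23, 7.16, 8.21 and 6.73 in F + LFD and 6.45, 6.79, 7.11 and 7.24 in F(OVX) + LFD, with overlap. Their difference of -0.43 (95% CI -1.21 to 0.34) was not called, and the difference between the diet effects of OVX females and females was -0.59 (95% CI -1.68 to 0.51), so a change in surgery effect with diet was not shown. M + LFD read 7.10, 7.97, 7.56 and 7.44, and M + HFD read 7.95, 6.48, 6.91 and 7.94. The diet differences were -0.20 in males, 0.57 in females (SE 0.36, 95% CI -0.25 to 1.4) and -0.01 in OVX females. The difference in females was 0.87 and called without F + LFD replicate 3.

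Smooth muscle markers moved with Ptgis over the 24 arrays, but not in every comparison. All 8 markers (among them Actg2, Cnn1 and Des) were well above background on all 24 arrays, and all 8 were lower in F(OVX) + HFD than in F + HFD, with a median log2 fold change of -0.45 beside 0.01 over all genes, and 0 called. The smooth muscle score (the mean of the centered log2 signals) ranged from 0.36 to 0.85 in F + HFD and from -0.28 to 1.03 in F(OVX) + HFD. All 8 fibroblast markers were lower too, with the same median of -0.45, and their score ranged from -0.26 to 1.09 in F + HFD and from -0.47 to 0.06 in F(OVX) + HFD. In the same comparison 4 of 4 tested mast cell markers were higher (median 1.47, 1 called), as were 8 of 8 colonic epithelium markers (median 0.16, 0 called). The mast cell score ranged from -0.93 to 0.6 in F + HFD and from -0.42 to 2.94 in F(OVX) + HFD. The 2.94 was replicate 3 alone, and the next highest array of that group scored 0.4. Over the 24 arrays, Ptgis correlated with the smooth muscle score at Pearson's r = 0.71 (permutation p = 5e-05, adjusted p = 0.00385 over 77 relations) and Spearman's rho = 0.75 (permutation p = 4e-05, adjusted p = 0.00308). Without the pair of arrays farthest from the median score r was 0.74, and within the slides of M, F and F(OVX), 8 arrays each, it was 0.81, 0.80 and 0.41. For HFD against LFD in OVX females, all 8 smooth muscle markers were higher (median 0.76, 4 called), while Ptgis differed by -0.01. The part of smooth muscle, fibroblast, mast cell or epithelial content in the Ptgis difference was not tested.

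The 77 relations were those of the 7 genes detected on all arrays with 11 marker scores, and 1 other passed an adjusted p under 0.05 by Pearson's r. Ptgs1 correlated with smooth muscle at r = 0.64 (permutation p = 8e-04, adjusted p = 0.0308) but did not pass by Spearman's rho of 0.54 (permutation p = 0.0078, adjusted p = 0.12). Without the farthest pair of arrays r was 0.57, and within M, F and F(OVX) it was 0.73, 0.43 and 0.63. Ptgs1 and Ptgis correlated with each other at r = 0.60 over the 24 arrays and 0.66 after the group means were removed, given as a description.

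**Figure D4:**
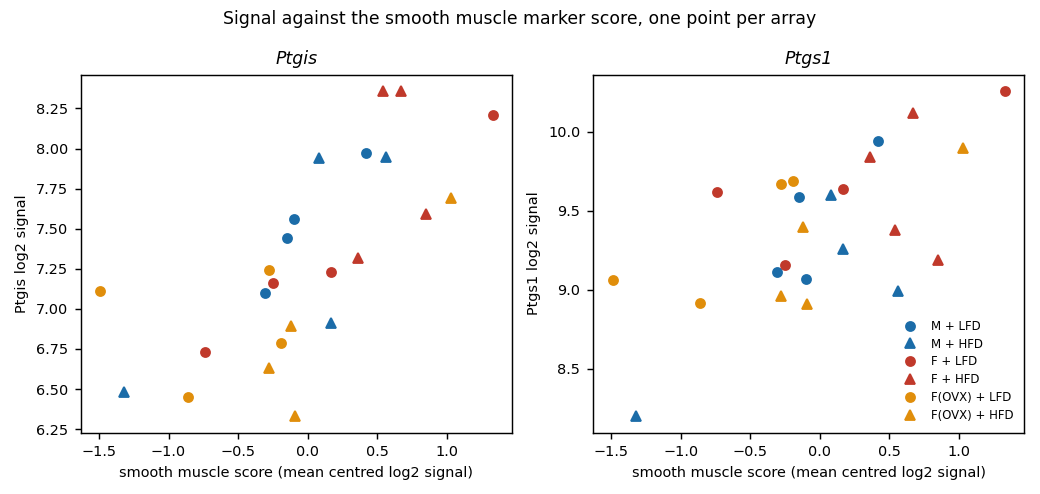
Log2 signal of Ptgis (left) and Ptgs1 (right) on the y axis against the smooth muscle marker score on the x axis, 1 point per array (n = 24), colored by class with circles for LFD and triangles for HFD. Both genes rise along the score, with r = 0.71 for Ptgis and 0.64 for Ptgs1.

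Hpgd and Slco2a1, which remove prostaglandins, were not called in any comparison, and both read high on the arrays of M + LFD that stood apart in Hox genes. Hpgd, the main prostaglandin-inactivating enzyme, read 12.22, 11.94, 10.44 and 10.94 in M + LFD and 10.87, 10.34, 11.08 and 11.58 in M + HFD. Slco2a1, the prostaglandin transporter, read 11.02, 10.96, 9.04 and 10.15 in M + LFD and 10.78, 10.44, 10.50 and 10.58 in M + HFD. M + LFD replicates 1 and 2 gave the highest Hpgd values of the male arrays and the lowest posterior Hox scores of all 24 arrays. The male diet difference of Hpgd was -0.42 (SE 0.43, 95% CI -1.39 to 0.55), and without those arrays it was 0.28. That of Slco2a1 was 0.28 (SE 0.41, 95% CI -0.65 to 1.21), and without them it was 0.98 and called (limma adjusted p = 0.938). Over the 24 arrays, the posterior Hox score correlated with Hpgd at Pearson's r = -0.30 (permutation adjusted p = 0.569). With Slco2a1 it correlated at r = 0.20 (permutation adjusted p = 0.603). F(OVX) + LFD replicate 2 also read high, at 11.95 for Hpgd and 11.59 for Slco2a1, with a posterior Hox score of 2.34. Beyond these correlations and the fits with a Hox covariate, the part of the sampled colon region in these values was not tested.

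In the other classes Hpgd read 11.47, 10.99, 10.63 and 10.58 in F + LFD and 11.04, 11.13, 10.86 and 10.57 in F + HFD. It read 10.87, 11.95, 11.10 and 11.21 in F(OVX) + LFD and 11.04, 11.56, 11.19 and 11.03 in F(OVX) + HFD. The diet differences of -0.02 (95% CI -0.53 to 0.50) and -0.08 (95% CI -0.63 to 0.47) were well inside the spread between mice. Slco2a1 read 10.16, 9.15, 10.45 and 10.53 in F + LFD and 9.63, 9.85, 10.30 and 9.54 in F + HFD. In F(OVX) + LFD it held both the highest and the lowest of the 24 arrays, at 9.86, 11.59, 8.82 and 10.05, against 9.92, 9.55, 10.49 and 10.29 in F(OVX) + HFD. Its diet differences were -0.24 (95% CI -0.98 to 0.49) in females and -0.02 (95% CI -1.18 to 1.14) in OVX females. All 4 arrays of M + HFD lay above those of F + HFD, with a difference of 0.74 (SE 0.46, 95% CI -0.22 to 1.71, p = 0.123 by limma, exact permutation p = 0.0286, n = 4 per group) that was not called. Hpgd and Slco2a1 correlated at r = 0.46 over the 24 arrays.

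Of the PGE2 receptors, Ptger4 was detected on every array, and the gap between its HFD and LFD means was widest in females. F + LFD read 11.60, 11.11, 10.64 and 10.44, and F + HFD read 10.62, 10.74, 10.07 and 10.13. M + LFD read 10.78, 11.09, 10.76 and 10.76, and M + HFD read 11.36, 10.11, 10.91 and 10.81. F(OVX) + LFD read 10.40, 10.32, 10.57 and 10.67, and F(OVX) + HFD read 10.47, 10.73, 10.67 and 10.56. The female groups overlapped, with 2 of the 4 F + HFD arrays below every F + LFD array. The female difference was -0.56 (SE 0.28, 95% CI -1.20 to 0.08, p = 0.08 and adjusted p = 0.991 by limma, exact permutation p = 0.143, n = 4 per group), just under the 1.5-fold limit and above the p limit. Taken as pairs by replicate number, HFD was lower in 4 of 4 female pairs (paired exact permutation p = 0.125, the smallest that 4 pairs can give), and limma with that block gave the same -0.56 with an adjusted p of 0.666, still not called for its fold. Of the 10 genes tested as pairs, Ptges2 also reached that smallest p, with HFD lower in 0 of 4 pairs. The Ptger4 diet difference was -0.05 (95% CI -0.63 to 0.53) in males and 0.12 (95% CI -0.19 to 0.43) in OVX females. The dimmer Ptger4 probe differed by -0.47 in females, -0.06 in males and 0.46 in OVX females, and the probes correlated at r = 0.68 over the 24 arrays.

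The Ptger4 diet effect in OVX females minus that in females was 0.68 (SE 0.34, 95% CI -0.03 to 1.38, limma adjusted p = 1), which was not called. With the replicate number as a block within each class, the same 0.68 was called, with a limma adjusted p of 0.999. It was also called, at 0.75 to 0.85, when F + LFD replicate 3 or 4 or F + HFD replicate 1 or 2 was left out. The female diet difference was -0.73 and called without F + LFD replicate 4.

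Ptger2 and Ptger3 were too dim for most comparisons. Ptger2 passed the background flag on each array of F + LFD (4.81, 4.47, 4.86 and 4.48), 2 of 4 in M + LFD, F + HFD and F(OVX) + LFD, and none in M + HFD and F(OVX) + HFD. The F + HFD arrays read 4.89, 2.04, 4.92 and 3.75, so they enclosed the range of F + LFD. The female difference of -0.75 (SE 0.59, 95% CI -2.10 to 0.59, limma p = 0.234, exact permutation p = 0.429, n = 4 per group) was not called, and it was -0.14 without F + HFD replicate 2. Ptger3 passed the flag on no more than 3 arrays of any group and was tested nowhere, with group means ± SD from 4.88 ± 0.57 in F + HFD to 5.46 ± 0.69 in F(OVX) + LFD on the brighter probe. Its dimmer probe ran from 2.52 to 5.26 and passed on 9 of 24 arrays.

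Between classes on 1 diet, the 4 arrays of a group lay wholly to one side for 1 of 9 tested genes in M against F on LFD (Ptges), against 5.88% of all genes tested, and for 1 of 7 on HFD (Slco2a1), against 8.38%. In F(OVX) against F it was 0 of 9 on LFD, against 1.72%, and 0 of 7 on HFD, against 4.5%. Over the 60 exact permutation tests between classes of all 15 probes, the lowest adjusted p was 0.429.

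The differences between diet effects, and between classes on 1 diet, called no further gene on the brightest probes. The diet effects of males and females were compared for 9 genes, those of males and OVX females for 8 and those of OVX females and females for 9, with 0 called in each against backgrounds of 2.95%, 6.33% and 1.5%. The diet effect averaged over the 3 classes called 0 of 9 against 0.773%. Males against females called 0 of 9 on LFD and 0 of 7 on HFD, against 5.04% and 7.55%, and OVX against sham-operated females on LFD called 0 of 9 against 1.65%. These comparisons share arrays with one another. The moderated F test over the 6 group means found 207 of 22383 genes (0.925%) at an adjusted p under 0.05, none of them among the 9 genes tested here, of which Ptgis had the lowest p (0.0972, adjusted p = 0.502).

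Genes most like each gene detected on all arrays were found by Pearson's r of the log2 signal over the 24 arrays, among 11878 genes that have a symbol and were also detected on all arrays. Slco2a1 was most like Cyp2d12, Cyp2d10 and Cyp2d11 (r = 0.90, 0.90 and 0.89), which are cytochrome P450 genes of 1 family whose probes may share sequence. Hpgd was most like Glrx, Sult1d1 and Ugdh (0.89, 0.89 and 0.87). Ptgis was most like Ptn, Ppp1r14a and Dnajc18 (0.87, 0.87 and 0.86), of which Ppp1r14a encodes an inhibitor of myosin phosphatase known from smooth muscle. Ptgs1 was most like Plin4, Tmtc1 and Rnf144b (0.84, 0.83 and 0.82), and Ptges2 like Nudt14, Rbks and Zdhhc7 (0.82, 0.81 and 0.79). The likeness was lower for Ptges, at 0.73 for Tbc1d23, and for Ptger4, at 0.65 for Pitpnm3.

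The other genes of the pathway were taken from 7 lists with 58 genes in all. In males 4 of 41 tested genes (9.76%) were called on HFD, against the background of 4.3%, in females 1 of 46 (2.17%, against 1.2%) and in OVX females 1 of 41 (2.44%, against 2.19%). Without M + LFD replicates 1 and 2, an alternative chosen after seeing the data, none of the 4 male calls was kept. Upstream, the arachidonate-releasing phospholipases had 0 called in each class, of 6, 7 and 6 genes tested. In the list of other prostanoid synthases, the aldo-keto reductase Akr1b8 fell by 0.70 in males (SE 0.28, limma adjusted p = 0.8) and the thromboxane synthase Tbxas1 fell by 0.69 in OVX females (SE 0.23, limma adjusted p = 1). Whether each listed enzyme acts on prostaglandins in the colon was not tested. The other prostanoid receptors had 0 called on HFD, and 2 or 3 of 7 were tested, among them the thromboxane receptor Tbxa2r. The brightest probes of Ptgdr and Ptgdr2, the prostaglandin D2 receptors, named after their values were seen, were well above background on no array.

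Of the 5 genes listed for other prostaglandin breakdown and export, the carbonyl reductase Cbr3 fell by 1.09 in males (SE 0.34, limma adjusted p = 0.8). There 4 of 5 were not called, and none was called in females or OVX females. The leukotriene and lipoxygenase branch, which uses the same arachidonic acid, had 0 called of 5, 7 and 5 tested. Among 10 cAMP-response genes, which can read out Ptger2 and Ptger4 but also many other signals, Fosb rose by 1.79 in males (SE 0.54, limma adjusted p = 0.8) and Nr4a1 fell by 0.80 in females (SE 0.31, limma adjusted p = 0.991). The list's medians were 0.39, -0.15 and -0.03 in males, females and OVX females, with 8, 3 and 4 of 10 genes higher on HFD. The male diet effect minus the female one was 1.98 for Nr4a1 (SE 0.65), 2.17 for Fosb (SE 0.86) and -0.65 for the cAMP phosphodiesterase Pde4d (SE 0.23), each with a limma adjusted p of 0.975. Over the 7 lists this comparison called 2 genes up and 2 down of 46 (8.7%, against 2.95%), with Nfkb1, a listed inducer of Ptgs2, at -0.75. Without M + LFD replicates 1 and 2 Nr4a1, Fosb, Pde4d and Nfkb1 were at 1.66, 2.01, -0.62 and -0.69, and Fosb was no longer called. Males minus OVX females called 1 up and 2 down of 41 (7.32%, against 6.33%), namely Fosb (1.9), Akr1b8 (-1.22) and Cbr3 (-1.4). Without those arrays only Akr1b8 stayed called (-1.08). Of the inflammatory inducers of Ptgs2, Tlr2, a sensor of bacterial lipoproteins, fell by 0.83 in males (SE 0.35, limma adjusted p = 0.8), and the difference was -0.35 without M + LFD replicates 1 and 2. For Akr1b8, Cbr3 and Fosb it was -0.56, -0.99 and 1.64 without them. Il1a, Il6 and Il17a, also named after their values were seen, were well above background on no array.

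**Figure D5:**
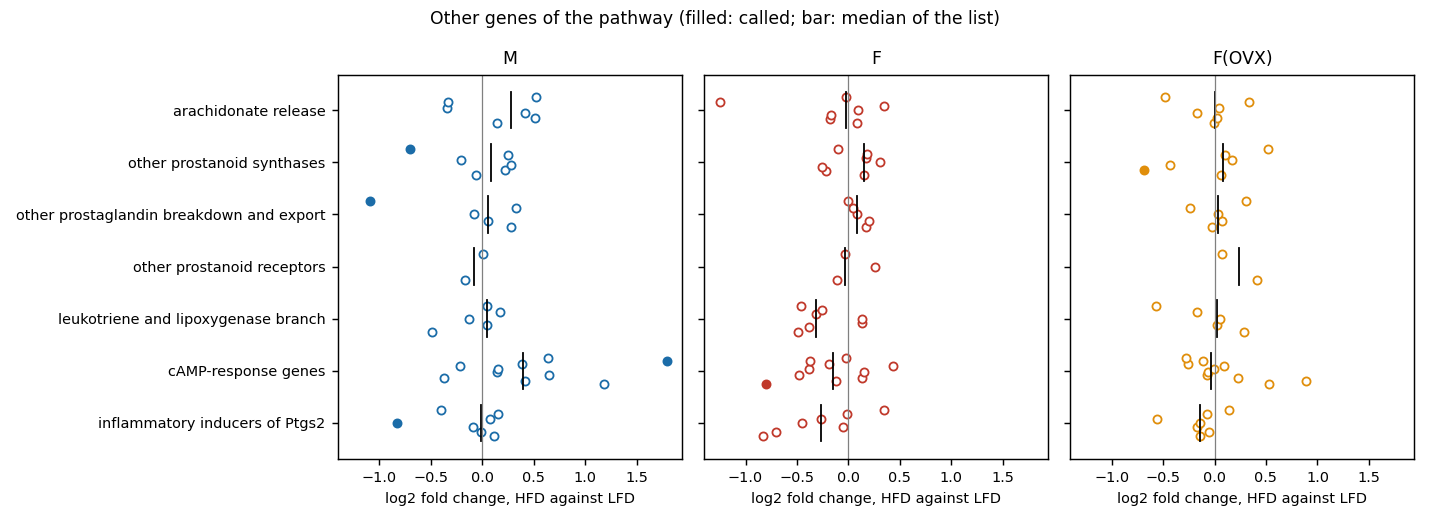
Log2 fold change of HFD against LFD (x axis) for each tested gene of the 7 pathway lists (y axis) in M, F and F(OVX), with filled points called, open points not called and bars at the list median. The filled points are Akr1b8, Cbr3, Fosb and Tlr2 in M, Nr4a1 in F and Tbxas1 in F(OVX).

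Between classes, 3 of 46 genes of these lists (6.52%, against 5.04%) were called for M against F on LFD, all lower in males, namely the phospholipase Pla2g2d (-2.07), the efflux pump Abcc4 (-0.70) and the leukotriene receptor Cysltr1 (-0.69). Without M + LFD replicates 1 and 2 these were -0.99, -0.23 and -0.46, and none was called. Cysltr1 was well above background on 3 of 4 arrays of M + LFD. On HFD 4 of 41 (9.76%, against 7.55%) were called, with Tbxa2r lower in males (-0.79, SE 0.25, limma adjusted p = 0.169) and Nr4a1 (1.36), Fosb (1.92) and Tlr4 (0.61) higher. The prostacyclin receptor Ptgir was lower in F(OVX) + LFD than in F + LFD (-0.83, SE 0.36, limma adjusted p = 1), as was Cysltr2 (-1.26), which made 2 of 46 called (4.35%, against 1.65%). Both entered through F + LFD, and in F(OVX) + LFD Ptgir was well above background on 2 of 4 arrays and Cysltr2 on 1 of 4, so these sizes rest in part on undetected signal. On HFD, OVX against sham-operated females called 0 of 41.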

How the data were processed

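Colon RNA of 24 mice was hybridized to single-color Agilent arrays, and the deposited values are the scanner's processed intensity (gProcessedSignal), which the authors obtained with Feature Extraction 11.0.1.1. Per the study's methods the authors took logs, quantile-normalized, removed flagged probes and used a t-test. Here deposited intensities were put on the log2 scale and quantile-normalized over the 24 arrays, outlier spots were set to missing, and spots of 1 probe were averaged. Accessions were matched to RefSeq symbols (58.3% of 56605 probes). Diets were compared within each class over 8 arrays, and the other contrasts over all 24, with limma 3.58.1 in R 4.3.3. Permutation tests and correlations used scipy 1.17.1 and were two-sided, with exact tests over 70 assignments (smallest p = 0.0286) and correlations over 100000 permutations. The limma fits were tested on simulated data. The exact tests between classes, the paired exact test and the left-out arrays for list genes were added after seeing the data.

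The 10 genes and all gene lists were chosen with earlier results of these data known. All 10 genes were named, with list genes that were called and the 3 genes most like each gene. The methods give 5 mice per group for arrays and the labels give 4. The limma p-values set each difference against the spread between these samples. Per the methods, the array mice were picked for a body weight near their group's average. How this choice bears on the spread was not tested. Same-numbered arrays share a slide column, and their deviations from the group means correlated at 0.26 to 0.58 in F, -0.26 to 0.01 in M and -0.09 to 0.33 in F(OVX), over 16836 genes. The paired exact test was therefore run for F only. The replicate block, one of the alternatives, was applied to all classes, also where the numbers did not correlate. Precision is limited by 4 arrays per group and by signal over background. Alternatives were another scaling, another background correction, other filters, the methods' t-test, a replicate block, other probe rules, 1 fit for all arrays, a Hox covariate and left-out arrays.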

Additional observations from a re-analysis of the deposited data

Results flagged for a closer look

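Ptger4 in M + LFD had 1 array far from the others, replicate 2 at 11.09 against 10.76 to 10.78, with a gap of 0.947 of the group's range, past the limit for 4 values. It was 1 of 45 groups checked, and chance gives such a gap in a small share of groups.

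On the Ptges probe A_51_P312327 the diet effect in males exceeded that in OVX females by 1.55 (limma adjusted p = 0.537), with F(OVX) + HFD replicate 2 not well above background. On the Ptges probe A_55_P1974189 the diet effect in males exceeded that in females by 1.17 (limma adjusted p = 0.969), a value that rests in part on arrays where it was not well above background. The brightest Ptges probe gave 0.14 and 0.17 for these differences, and neither was called.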

How the results depend on the processing

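Of 1976 fold changes of the 10 genes under the alternatives, 1954 kept their side of the thresholds (an uncalled value could change sign), 22 became called, 0 lost a call and 0 called ones reversed. Counts of called genes rose from 0 to 1 with the mean over all probes for HFD in M (Ptges, 0.61), M minus F (Ptges, 0.72), M minus F(OVX) (Ptges, 0.97) and F(OVX) minus F (Ptger4, 0.81). They rose to 1 without M + LFD replicates 1 and 2 for HFD in M (Slco2a1, 0.98), and with the Hox covariate for M minus F (Ptgis, -1.09) and M against F on HFD (Ptgs1, -0.65). With the replicate block the count rose to 1 for F(OVX) minus F (Ptger4, 0.68) and changed no other count of the 10 genes. Leaving out 1 array gave 0 to 1 for HFD in M and in F, M minus F, F(OVX) minus F, M against F on either diet, and F(OVX) against F on LFD, 0 to 0 for HFD in F(OVX), the averaged effect and M minus F(OVX), and 1 to 1 for F(OVX) against F on HFD. Over all genes the counts depended more on the setting: 882 (264 to 1217) for HFD in M, 264 (80 to 627) in F and 421 (209 to 843) in F(OVX), and, with 1 array left out, 582 to 1476, 147 to 649 and 208 to 685. The block moved the counts over all genes by over 1.5 times for HFD in F (587), M minus F (660 to 1150) and F(OVX) minus F (333 to 532). Ptgs2, Ptger2 and Ptger3 were limited by signal over background.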
